A study of Mus musculus with 9 samples.

Results

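The genes described here are 34 mouse genes of the cell cycle and DNA replication, taken by gene symbol from the 18049 genes of an expression table. No cut on a measured value was applied, but the genes were chosen with earlier results of these data known. Of the 34 genes, 19 act in DNA replication and the step from G1 into S phase (G1/S) and 15 act in G2 and mitosis (G2/M). The table holds 9 RNA-seq libraries of bone marrow-derived macrophages, which are phagocytes grown in culture from marrow cells, here of C57BL/6 mice aged 8 weeks. There were 3 libraries of cells given 15d-PGJ2-PC at 1 µM, 3 of cells given 15d-PGJ2 at 1 µM and 3 of control cells in medium alone, all kept in RPMI and collected after 6 h. 15d-PGJ2 is a cyclopentenone prostaglandin. Nothing is said here of the structure of 15d-PGJ2-PC, since PC is not spelled out in the labels. The labels call the libraries replicates without saying that they came from separate cultures or animals. The p-values below therefore weigh differences between groups against the scatter of these libraries, part or all of which may be technical.

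A cell that divides first copies its DNA and then segregates the copies. In G1, D-type cyclins with their kinases release E2F transcription factors from the retinoblastoma protein, and E2F then drives genes of replication, among them the MCM helicase and the enzymes that make deoxynucleotides. Later, B-type cyclins with Cdk1 start mitosis, in which Aurora and Polo kinases, a checkpoint and the anaphase-promoting complex order the separation of chromosomes. Macrophages grown from marrow divide in culture under the growth factor M-CSF, and transcripts of both groups in a bulk library may come in part from the cells of a culture that are cycling. Fewer cycling cells and less of these RNAs per cell cannot be told apart in such libraries.

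Values are FPKM, which are fragments scaled to transcript length and library size. The libraries were estimated to hold 5.30 to 5.44 M reads each, so that a tested G1/S gene rested on about 11 to 925 reads per library and a tested G2/M gene on about 8 to 226. A gene was tested, with limma on log2(FPKM + 1), if 3 or more of the 9 libraries reached 1 FPKM, and it is called if its adjusted p is under 0.05. Fold changes on this scale understate those of low genes, the more so the lower the gene. The median control mean was 6.07 FPKM for tested G1/S genes and 3.41 FPKM for tested G2/M genes. Of the 34 genes 31 were tested, 17 of G1/S and 14 of G2/M, and each was at 1 FPKM or more in at least 8 libraries. Cdc6, Hells and Bub1 did not reach 1 FPKM in 3 libraries and are given as values.

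The 12 macrophage markers were all present, with Adgre1, the gene of the surface protein F4/80, at 855 ± 8.11 FPKM with 15d-PGJ2-PC, 784 ± 23.9 FPKM with 15d-PGJ2 and 983 ± 34.3 FPKM in controls (SD, n = 3 each). The control libraries stood apart in transcripts of other tissues. Summed over 12 markers of epidermis and hair, libraries held 0.61 to 1.48 FPKM with 15d-PGJ2-PC, 0.70 to 1.03 FPKM with 15d-PGJ2 and 32.1 to 35.9 FPKM in controls, with 10 or 11 of the 12 at 0 in every treated library and none at 0 in controls. Sums over 12 stromal markers were 9.09 to 9.39 FPKM with 15d-PGJ2-PC, 9.38 to 11.9 FPKM with 15d-PGJ2 and 39.4 to 46.3 FPKM in controls. Sums over the macrophage markers were 6689 to 6865 FPKM with 15d-PGJ2-PC, 5683 to 6061 FPKM with 15d-PGJ2 and 7517 to 7837 FPKM in controls. Sums over the 9 erythroid markers, 8 of them in the table, were 0.52 to 1.60 FPKM with 15d-PGJ2-PC, 0.98 to 1.15 FPKM with 15d-PGJ2 and 24.7 to 32.4 FPKM in controls. For the 10 neutrophil markers they were 27.3 to 32.0 FPKM with 15d-PGJ2-PC, 17.1 to 21.6 FPKM with 15d-PGJ2 and 35.4 to 37.8 FPKM in controls, and for the lymphocyte markers, 4 of 9 in the table, 25.5 to 29.4 FPKM with 15d-PGJ2-PC, 14.6 to 17.9 FPKM with 15d-PGJ2 and 39.5 to 47.3 FPKM in controls. Controls were highest in all 6 marker sums. Against control, 9 of 12 macrophage markers fell with 15d-PGJ2-PC and 12 of 12 with 15d-PGJ2, and all 9 tested epidermal, 6 tested stromal and 3 tested erythroid markers and the 1 tested lymphocyte marker fell with both. Of 5 tested neutrophil markers, 1 rose and 1 fell with 15d-PGJ2-PC, and 1 rose and 4 fell with 15d-PGJ2. These markers move with every contrast against control below, and their part in those results was not tested. When 15d-PGJ2-PC is set against 15d-PGJ2, the epidermal markers are near 0 on both sides, and 11 of 12 macrophage, 2 of 5 neutrophil and the 1 tested lymphocyte marker were higher with 15d-PGJ2-PC. The part of these in the differences between compounds was likewise not tested.

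With 15d-PGJ2, 12 of the 31 tested cell cycle genes fell and 0 rose, against control. Over all 11309 tested genes 25.0% fell and 22.2% rose in this contrast, 47.2% together, against 38.7% and 0.00% of the cell cycle genes. The G1/S genes gave 8 of 17 falls (47.1%), and the G2/M genes gave 4 of 14 (28.6%), a share close to that of all genes. Without 15d-PGJ2 replicate 3, 2 G2/M genes fell. Many of these genes are low, and of all genes with a mean of 1 to 10 FPKM 18.4% fell, against 10 of the 27 cell cycle genes in that range (37.0%). All 14 tested G2/M genes had control means under 10 FPKM, so 18.4% is the nearer background for their 28.6%. The median log2 fold change was -0.27 for G1/S genes and -0.36 for G2/M genes, beside -0.02 for all tested genes. The 3 15d-PGJ2 libraries lay below all 3 controls for 13 of the 31 genes and above them for 0, and over all genes this was so for 28.8% and 26.3%.

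With 15d-PGJ2-PC, 7 of the 31 genes fell and 0 rose, against control, 6 of the G1/S genes (35.3%) and 1 of the G2/M genes (7.14%). Over all genes 14.1% fell and 13.8% rose (27.8% together), and of those with a mean of 1 to 10 FPKM 7.97% fell, against 5 of the 27 cell cycle genes in that range (18.5%). The median log2 fold change was -0.12 for G1/S genes and -0.23 for G2/M genes, and all tested genes had a median near 0. The 15d-PGJ2-PC libraries lay below all controls for 10 genes and above them for 0, beside 21.3% and 20.5% of all genes. Both contrasts use the same 3 control libraries, so the falls in one are not independent of those in the other.

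**Figure D1:**
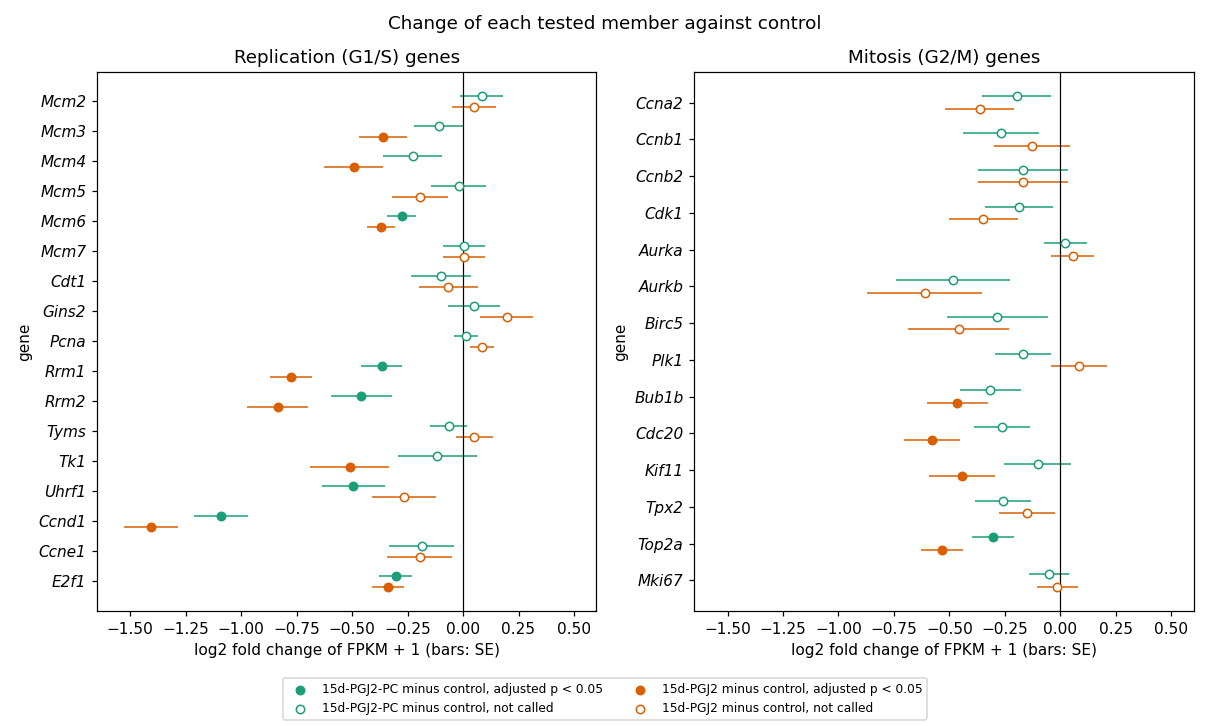
Log2 fold changes of FPKM + 1 against control for the 31 tested genes, G1/S genes on the left and G2/M genes on the right, with 15d-PGJ2-PC in green above 15d-PGJ2 in orange. Points are estimates, bars are standard errors and filled points have adjusted p under 0.05. The filled points all lie left of 0, and Ccnd1, Rrm1 and Rrm2 lie farthest left among them.

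Set against 15d-PGJ2, 15d-PGJ2-PC gave higher Rrm1 and no other call among the 31 genes. Over all genes 12.3% were higher and 8.30% lower in this contrast (20.6% together), so calls among the cell cycle genes (3.23% higher, 0.00% lower) were below the share of all genes. Most of the cell cycle genes are low, and of the 27 with a mean of 1 to 10 FPKM 1 was higher (3.70%). In both contrasts against control, falls were rarer among all genes of that range than among all genes. The share of all genes in that range was not computed between compounds, so the lower share here does not show that the compounds differ less in these genes. The median log2 difference was 0.04 for G1/S genes and 0.14 for G2/M genes, beside 0.02 for all tested genes. These medians moved when 1 library was left out, to 0.087 and 0.040 without 15d-PGJ2 replicate 3, and to 0.086 for G1/S genes without 15d-PGJ2-PC replicate 3, 0.078 for G1/S genes without 15d-PGJ2 replicate 1, 0.050 for G2/M genes without 15d-PGJ2-PC replicate 1 and 0.075 for G2/M genes without 15d-PGJ2 replicate 2. The 15d-PGJ2-PC libraries lay above all 15d-PGJ2 libraries for 8 of the 31 genes and below them for 1, beside 20.5% and 16.7% of all genes. The group mean with 15d-PGJ2-PC lay between that of 15d-PGJ2 and the higher one of control for 17 of the 31 genes. For 4 it lay between the other 2 means with 15d-PGJ2 the highest, and for 10 it did not lie between them. The shares of all genes with these orders were not computed. The 3 contrasts are the 3 pairs that the design allows, each at 1 dose and 1 time. With p-values adjusted over all 3 together, the same 12, 7 and 1 genes were called.

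The largest fall was that of Ccnd1, the gene of cyclin D1, which carries growth factor signals into G1 (Entrez 12443, GRCm38 chromosome 7, 144929931 to 144939831). It stood at 3.67, 3.26 and 2.80 FPKM with 15d-PGJ2-PC, at 2.22, 2.72 and 2.27 FPKM with 15d-PGJ2 and at 6.82, 8.60 and 8.73 FPKM in controls. All treated libraries were lower than all controls, and the 15d-PGJ2 libraries were the lowest. Against control the log2 fold change was -1.09 with 15d-PGJ2-PC (SE 0.12, adjusted p = 7.08e-05) and -1.41 with 15d-PGJ2 (SE 0.12, adjusted p = 3.78e-06), so means were 0.403 and 0.299 of control. Between the compounds the log2 difference was 0.32 (95% interval 0.05 to 0.59, adjusted p = 0.0962), which is not called although the groups do not overlap.

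E2f1 encodes the E2F factor best known for driving entry into S phase (Entrez 13555, chromosome 2, 154559400 to 154569892). Its libraries read 12.3, 13.3 and 13.0 FPKM with 15d-PGJ2-PC, 13.4, 11.3 and 13.0 FPKM with 15d-PGJ2 and 17.0, 15.5 and 15.9 FPKM in controls. Both treated groups were below every control and overlapped each other. The gene fell by 0.30 on the log2 scale with 15d-PGJ2-PC (SE 0.07, adjusted p = 0.0109) and by 0.34 with 15d-PGJ2 (SE 0.07, adjusted p = 0.00326), and the compounds differed by 0.04 (95% interval -0.13 to 0.20). Ccne1, the gene of cyclin E1, which with Cdk2 starts S phase, averaged 1.52 ± 0.23 FPKM with 15d-PGJ2-PC, 1.52 ± 0.40 FPKM with 15d-PGJ2 and 1.87 ± 0.15 FPKM in controls and was not called (adjusted p = 0.387 and 0.305 against control).

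Ribonucleotide reductase makes deoxynucleotides from ribonucleotides, with Rrm1 encoding the large subunit and Rrm2 the small subunit that rises in S phase. Rrm1 (Entrez 20133, chromosome 7, 102441695 to 102469771) was at 5.41, 4.44 and 5.40 FPKM with 15d-PGJ2-PC, 3.86, 3.35 and 3.51 FPKM with 15d-PGJ2 and 6.96, 6.65 and 6.85 FPKM in controls. No library of one group fell within the range of another, and 15d-PGJ2-PC stood in the middle. Rrm1 fell by 0.37 with 15d-PGJ2-PC (SE 0.09, adjusted p = 0.0134) and by 0.78 with 15d-PGJ2 (SE 0.09, adjusted p = 4.9e-05). The difference between the compounds, 0.41 (SE 0.09, 95% interval 0.20 to 0.61, adjusted p = 0.00996), is the one call between them among the 31 genes. Without 15d-PGJ2-PC replicate 2 the fall against control was not called (adjusted p = 0.0504), while the difference between compounds was called under every alternative run.

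Rrm2 (Entrez 20135, chromosome 12, 24708254 to 24714146) read 2.54, 2.55 and 1.65 FPKM with 15d-PGJ2-PC, 1.31, 1.57 and 1.56 FPKM with 15d-PGJ2 and 3.65, 3.60 and 3.04 FPKM in controls. The order of the groups is that of Rrm1, with 1 of the 15d-PGJ2-PC libraries close to the 15d-PGJ2 libraries. Rrm2 fell by 0.46 with 15d-PGJ2-PC (SE 0.14, adjusted p = 0.0311) and by 0.84 with 15d-PGJ2 (SE 0.14, adjusted p = 0.000545), and between compounds it differed by 0.38 (95% interval 0.07 to 0.69, adjusted p = 0.0839). The fall with 15d-PGJ2-PC was not called without 15d-PGJ2-PC replicate 3 (0.103), without control replicates 1 or 2 (0.0946 and 0.0922) or with no filter on low genes (0.0585). Without 15d-PGJ2-PC replicate 3 the compounds differed (0.0199).

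Tk1, thymidine kinase of the salvage pathway, was at 2.36, 3.02 and 3.10 FPKM with 15d-PGJ2-PC, 1.75, 1.36 and 2.76 FPKM with 15d-PGJ2 and 3.11, 3.75 and 2.62 FPKM in controls. It fell by 0.51 with 15d-PGJ2 (SE 0.18, adjusted p = 0.036), though 1 of the 15d-PGJ2 libraries lay within the control range and values rested on 11 to 29 reads. That call was lost in 8 of the alternatives, with adjusted p from 0.0526 to 0.132: without 15d-PGJ2 replicates 1 or 2 (0.0934 and 0.132), without control replicates 1 or 2 (0.0767 and 0.126) and in 4 other settings. With 15d-PGJ2-PC the adjusted p was 0.681 against control, and the compounds differed by 0.39 (95% interval -0.001 to 0.789), a difference called without 15d-PGJ2 replicate 3 (0.0351). Tyms, thymidylate synthase, averaged 19.0 ± 1.33 FPKM with 15d-PGJ2-PC, 20.7 ± 2.37 FPKM with 15d-PGJ2 and 19.9 ± 0.83 FPKM in controls and was not called in any contrast. The annotation holds a pseudogene of Tyms, so reads may be shared.

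The MCM2 to MCM7 proteins form the ring-shaped helicase that opens DNA at the fork, and calls among their genes were mixed. With 15d-PGJ2, Mcm3, Mcm4 and Mcm6 fell and Mcm2, Mcm5 and Mcm7 did not pass, and with 15d-PGJ2-PC only Mcm6 of the 6 fell. Mcm6 (Entrez 17219, chromosome 1, 128331575 to 128359705) was at 10.4, 9.53 and 9.85 FPKM with 15d-PGJ2-PC, 9.34, 9.24 and 9.12 FPKM with 15d-PGJ2 and 12.5, 12.6 and 11.6 FPKM in controls. Every treated library was below every control. It fell by 0.28 with 15d-PGJ2-PC (SE 0.06, adjusted p = 0.00817) and by 0.37 with 15d-PGJ2 (SE 0.06, adjusted p = 0.000714), and the compounds differed by 0.09 (95% interval -0.05 to 0.24, adjusted p = 0.349).

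Mcm4 read 4.14, 3.60 and 4.16 FPKM with 15d-PGJ2-PC, 3.90, 2.82 and 2.76 FPKM with 15d-PGJ2 and 4.50, 5.72 and 4.30 FPKM in controls. Both treated groups were below all controls, and the fall was called with 15d-PGJ2 (-0.49, SE 0.13, adjusted p = 0.011) and not with 15d-PGJ2-PC (-0.23, adjusted p = 0.243). Mcm3 read 7.77, 6.61 and 6.32 FPKM with 15d-PGJ2-PC, 5.79, 5.09 and 6.00 FPKM with 15d-PGJ2 and 7.64, 6.51 and 8.47 FPKM in controls. The 15d-PGJ2 libraries were below all others (-0.36 against control, SE 0.11, adjusted p = 0.0186), a call lost without 15d-PGJ2 replicate 2 (0.0689) and without control replicates 1 or 3 (0.053 and 0.0729). That Mcm3 and Mcm4 were called with 1 compound only does not show that the compounds differ, and the log2 differences between compounds were 0.25 (95% interval 0.01 to 0.49, adjusted p = 0.137) and 0.26 (95% interval -0.03 to 0.56, adjusted p = 0.197).

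Mcm2 was at 5.83, 5.20 and 4.90 FPKM with 15d-PGJ2-PC, 4.51, 5.30 and 5.70 FPKM with 15d-PGJ2 and 4.83, 4.81 and 5.20 FPKM in controls. Mcm5 was at 5.93, 4.38 and 4.24 FPKM with 15d-PGJ2-PC, 3.88, 4.80 and 3.80 FPKM with 15d-PGJ2 and 5.08, 4.55 and 5.03 FPKM in controls. Mcm7 was at 6.45, 6.40 and 7.48 FPKM with 15d-PGJ2-PC, 6.25, 7.52 and 6.57 FPKM with 15d-PGJ2 and 6.99, 6.14 and 7.14 FPKM in controls. The groups overlap in all 3 genes. The 95% intervals of the log2 fold change with 15d-PGJ2 ran from -0.17 to 0.27 for Mcm2, from -0.47 to 0.08 for Mcm5 and from -0.21 to 0.21 for Mcm7. Those of the called genes ran from -0.60 to -0.12 for Mcm3, from -0.79 to -0.20 for Mcm4 and from -0.51 to -0.23 for Mcm6. The interval of Mcm3 overlaps those of Mcm2, Mcm5 and Mcm7. That of Mcm4 overlaps those of Mcm5 and Mcm7, and that of Mcm6 overlaps that of Mcm5. Differences between genes were not tested, so a call in one gene and not in another does not show that they differ.

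**Figure D2:**
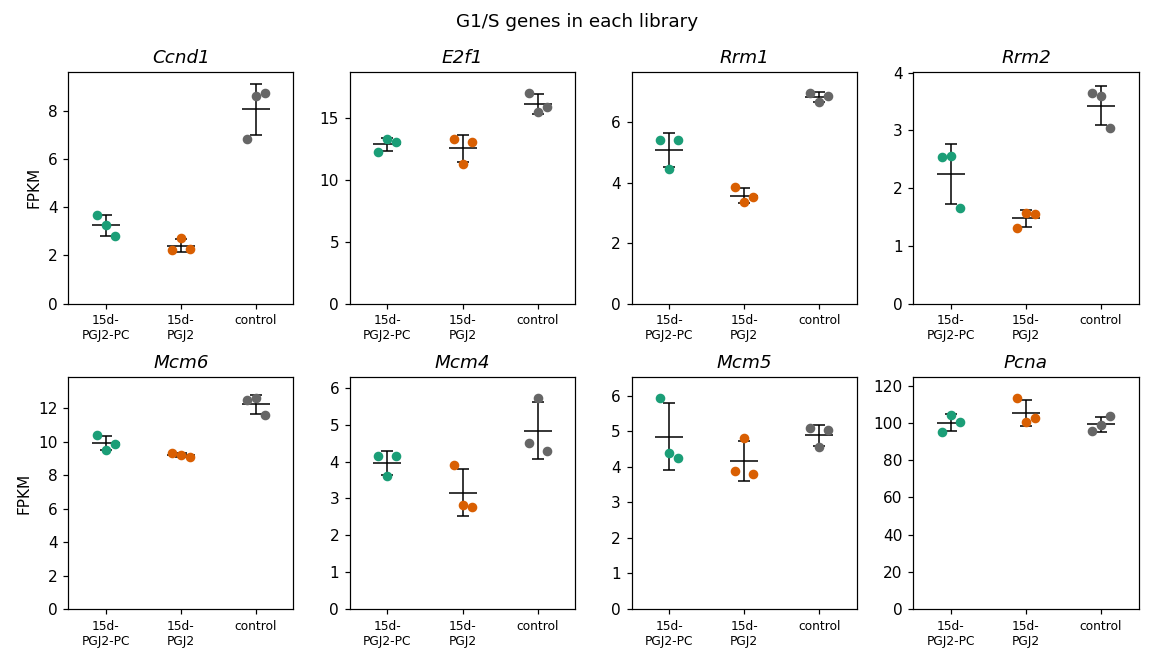
FPKM in each library for 8 G1/S genes, with 15d-PGJ2-PC, 15d-PGJ2 and control from left to right. Points are libraries, long bars are means and short bars are 1 SD (n = 3), and each axis starts at 0. Ccnd1, E2f1, Rrm1, Rrm2, Mcm6 and Mcm4 have every treated library below every control, and in Mcm5 and Pcna the groups overlap.

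The remaining G1/S genes were mostly level. Pcna, the sliding clamp of DNA polymerases and the most abundant of these genes, averaged 100.1 ± 4.65 FPKM with 15d-PGJ2-PC, 105 ± 6.95 FPKM with 15d-PGJ2 and 99.3 ± 3.96 FPKM in controls, with 95% intervals of the log2 fold change from -0.11 to 0.13 with 15d-PGJ2-PC and from -0.04 to 0.21 with 15d-PGJ2. Pseudogenes of Pcna are annotated, and reads may be shared with them. Cdt1, which loads the helicase at origins, averaged 5.71 ± 1.52 FPKM with 15d-PGJ2-PC, 5.76 ± 0.28 FPKM with 15d-PGJ2 and 6.07 ± 0.23 FPKM in controls. It was not called, although without 15d-PGJ2-PC replicate 1, its highest library, it passed in 15d-PGJ2-PC against control (0.0466). Gins2, a subunit of the active helicase, averaged 5.72 ± 0.92 FPKM with 15d-PGJ2-PC, 6.44 ± 0.91 FPKM with 15d-PGJ2 and 5.46 ± 0.22 FPKM in controls and was not called.

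Uhrf1, which keeps DNA methylation through replication, was the G1/S gene that fell with 15d-PGJ2-PC and was not called with 15d-PGJ2. It stood at 1.99, 1.47 and 1.76 FPKM with 15d-PGJ2-PC, 2.57, 2.12 and 1.94 FPKM with 15d-PGJ2 and 2.91, 2.29 and 3.43 FPKM in controls. The 15d-PGJ2-PC libraries lay below all controls (-0.49, SE 0.14, adjusted p = 0.0249), and the 15d-PGJ2 libraries overlapped both (-0.27 against control, adjusted p = 0.151). The compounds differed by -0.23 (95% interval -0.54 to 0.09, adjusted p = 0.303). The call was lost without 15d-PGJ2-PC replicates 2 or 3 (0.086 and 0.058) and without control replicates 1 or 3 (0.0675 and 0.0923).

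The untested Cdc6, which loads the helicase with Cdt1, was at 0.24, 0.36 and 0.28 FPKM with 15d-PGJ2-PC, 0.16, 0.40 and 0.28 FPKM with 15d-PGJ2 and 0.47, 0.51 and 0.43 FPKM in controls. All treated values are below all controls at this low level. Hells, a chromatin remodeller of dividing cells, averaged 0.77 ± 0.16 FPKM with 15d-PGJ2-PC, 0.73 ± 0.30 FPKM with 15d-PGJ2 and 0.84 ± 0.25 FPKM in controls.

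Among G2/M genes the levels were lower, with control means of 1.76 to 6.39 FPKM. Top2a encodes topoisomerase IIα, which untangles sister chromatids (Entrez 21973, chromosome 11, 98992947 to 99024199), and was the one G2/M gene that fell with both compounds. It was at 5.81, 4.66 and 4.54 FPKM with 15d-PGJ2-PC, 4.08, 4.08 and 4.13 FPKM with 15d-PGJ2 and 6.54, 6.01 and 6.61 FPKM in controls. The groups do not overlap, with 15d-PGJ2-PC in the middle. Top2a fell by 0.30 with 15d-PGJ2-PC (SE 0.10, adjusted p = 0.037) and by 0.53 with 15d-PGJ2 (SE 0.10, adjusted p = 0.000931), and the compounds differed by 0.23 (95% interval 0.02 to 0.44, adjusted p = 0.124). The call with 15d-PGJ2-PC was lost without 15d-PGJ2-PC replicates 2 or 3 (0.115 and 0.125), without control replicates 1, 2 or 3 (0.1, 0.0535 and 0.102), without 15d-PGJ2 replicate 3 (0.0503), with only the 6 libraries of the contrast (0.0635) and with no filter (0.0681).

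Cdc20 activates the anaphase-promoting complex, and Bub1b encodes the checkpoint kinase BubR1, which holds it back. Cdc20 (Entrez 107995, chromosome 4, 118432901 to 118437343) read 2.82, 3.23 and 2.74 FPKM with 15d-PGJ2-PC, 2.43, 2.35 and 1.72 FPKM with 15d-PGJ2 and 3.80, 3.22 and 4.14 FPKM in controls. It fell with 15d-PGJ2 (-0.58, SE 0.13, adjusted p = 0.00329) and not with 15d-PGJ2-PC (-0.26, adjusted p = 0.159), and the compounds differed by 0.32 (95% interval 0.04 to 0.60, adjusted p = 0.109). The 15d-PGJ2 libraries were below all others, and those with 15d-PGJ2-PC touched the control range. Bub1b read 2.54, 2.30 and 3.09 FPKM with 15d-PGJ2-PC, 2.93, 2.17 and 1.81 FPKM with 15d-PGJ2 and 3.58, 3.60 and 3.37 FPKM in controls. All treated libraries were below all controls, and the fall was called with 15d-PGJ2 (-0.47, SE 0.14, adjusted p = 0.0177) but not with 15d-PGJ2-PC (-0.32, adjusted p = 0.122). Without 15d-PGJ2 replicates 2 or 3 (0.0517 and 0.0679) or control replicate 2 (0.0506) Bub1b was not called. Between compounds Bub1b differed by 0.15 (95% interval -0.16 to 0.46, adjusted p = 0.50), which is not called. The partner kinase Bub1, untested, averaged 0.71 ± 0.10 FPKM with 15d-PGJ2-PC, 0.77 ± 0.21 FPKM with 15d-PGJ2 and 0.77 ± 0.14 FPKM in controls.

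Kif11 encodes Eg5, the motor that pushes spindle poles apart, and was at 1.30, 1.84 and 1.57 FPKM with 15d-PGJ2-PC, 1.26, 0.73 and 1.11 FPKM with 15d-PGJ2 and 1.62, 1.59 and 2.06 FPKM in controls. The 15d-PGJ2 libraries were below all others (-0.44 against control, SE 0.15, adjusted p = 0.0315), on 19 to 53 reads per library. This call was lost without 15d-PGJ2 replicates 2 or 3 (0.116 and 0.052), without control replicates 1 or 3 (0.0508 and 0.106) and with a replicate block (0.0512). Tpx2, which targets Aurora A to the spindle, averaged 2.60 ± 0.38 FPKM with 15d-PGJ2-PC, 2.87 ± 0.42 FPKM with 15d-PGJ2 and 3.30 ± 0.36 FPKM in controls and was not called.

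No mitotic cyclin was called, and neither was Cdk1, their kinase. Cdk1 read 3.70, 2.39 and 3.47 FPKM with 15d-PGJ2-PC, 2.83, 3.24 and 2.14 FPKM with 15d-PGJ2 and 3.98, 3.94 and 3.27 FPKM in controls. Ccna2, the gene of cyclin A2, which acts from S phase to mitosis, read 3.55, 4.20 and 2.75 FPKM with 15d-PGJ2-PC, 3.75, 2.25 and 3.06 FPKM with 15d-PGJ2 and 4.28, 3.86 and 4.20 FPKM in controls. In both genes the 15d-PGJ2 libraries lay below all controls, with adjusted p of 0.089 for Cdk1 and 0.0796 for Ccna2, and Ccna2 passed without 15d-PGJ2 replicate 1 (0.0297). The B-type cyclin gene Ccnb1 read 2.49, 1.40 and 2.11 FPKM with 15d-PGJ2-PC, 1.71, 2.59 and 2.58 FPKM with 15d-PGJ2 and 2.93, 2.17 and 2.65 FPKM in controls. Its relative Ccnb2 read 2.94, 3.54 and 2.01 FPKM with 15d-PGJ2-PC, 3.30, 1.90 and 3.31 FPKM with 15d-PGJ2 and 2.68, 4.11 and 3.07 FPKM in controls. The 3 groups overlap in both B-type cyclins, which have annotated pseudogenes that may share reads.

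Neither the Aurora and Polo kinases nor Birc5 was called. Aurkb, the kinase of the chromosomal passenger complex, had the most scattered values, with 2.37, 1.73 and 2.11 FPKM with 15d-PGJ2-PC, 0.73, 2.95 and 2.20 FPKM with 15d-PGJ2 and 3.61, 3.64 and 2.65 FPKM in controls, on 8 to 38 reads. It was not called with 15d-PGJ2 (-0.61, SE 0.26, adjusted p = 0.0747) or 15d-PGJ2-PC (-0.48, SE 0.26, adjusted p = 0.202). It passed with 15d-PGJ2 without 15d-PGJ2 replicate 2 (0.0178) and with 15d-PGJ2-PC without 15d-PGJ2 replicate 1 (0.0351) or with only the 6 libraries of the contrast (0.0367). Birc5, which encodes survivin of the same complex, averaged 3.69 ± 0.80 FPKM with 15d-PGJ2-PC, 3.20 ± 1.04 FPKM with 15d-PGJ2 and 4.81 ± 1.57 FPKM in controls. It was not called, but passed with 15d-PGJ2 without 15d-PGJ2 replicate 1 (0.0442), without control replicate 2 (0.024) or with a replicate block (0.0376).

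Aurka, the kinase of the spindle poles, was level at 3.35 ± 0.16 FPKM with 15d-PGJ2-PC, 3.45 ± 0.09 FPKM with 15d-PGJ2 and 3.29 ± 0.39 FPKM in controls. Plk1, the Polo kinase, was the one gene of the 31 whose 15d-PGJ2-PC libraries all lay below the 15d-PGJ2 libraries, at 1.47 ± 0.08 FPKM with 15d-PGJ2-PC, 1.94 ± 0.05 FPKM with 15d-PGJ2 and 1.79 ± 0.36 FPKM in controls. That difference was not called (-0.25, 95% interval -0.53 to 0.03, adjusted p = 0.195). Mki67, the gene of the proliferation marker Ki-67, averaged 3.81 ± 0.38 FPKM with 15d-PGJ2-PC, 3.93 ± 0.13 FPKM with 15d-PGJ2 and 3.98 ± 0.17 FPKM in controls. Its log2 fold change was -0.05 with 15d-PGJ2-PC (95% interval -0.26 to 0.15) and -0.01 with 15d-PGJ2 (95% interval -0.22 to 0.19). The fall estimated for Top2a with 15d-PGJ2 (-0.53, 95% interval -0.75 to -0.32) lies outside both intervals. The difference between these genes was not tested.

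**Figure D3:**
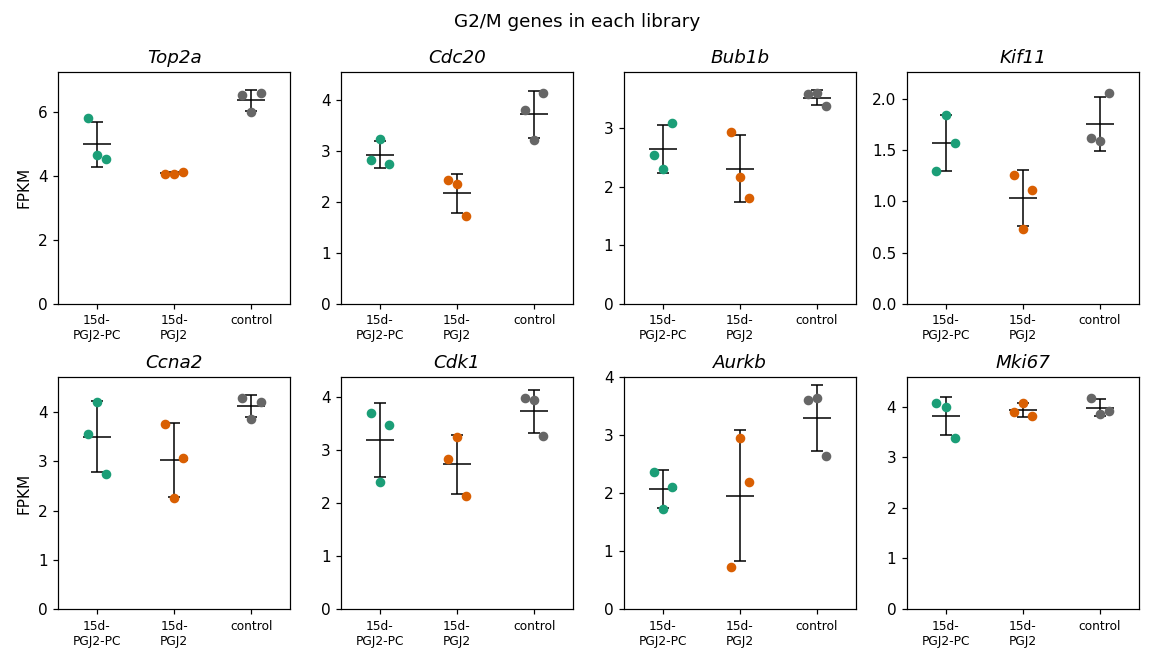
FPKM in each library for 8 G2/M genes, with 15d-PGJ2-PC, 15d-PGJ2 and control from left to right. Points are libraries, long bars are means and short bars are 1 SD (n = 3), and each axis starts at 0. Top2a has all treated libraries below all controls, and Mki67 is near 4 FPKM in every group.

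Genes of these classes are known to share promoter elements, E2F sites in many replication genes and the CHR element (cell cycle genes homology region), often with CCAAT boxes, in many mitotic genes. The promoters of 28 of the 34 genes were found in RefSeq (GRCm38.p6), from 250 bases before to 50 after the start. For E2f1, Cdc6, Hells and Aurka the window lies inside the listed span of the gene. Bases before the upstream end of these genes were not searched. They were searched on both strands for the E2F-like letters TTTCCCGC, TTTGGCGC, TTTCGCGC, TTCCCGCC and TTGGCGGG, for the CHR letters TTTGAA and TTCGAA, and for CCAAT. E2F-like letters overlap one another in some windows, and a gene was counted once. Among G1/S genes 9 of 16 held an E2F-like motif (56.2%), against 1 of 12 G2/M genes (8.33%) and 6.32% of 17491 protein-coding genes. The CHR letters were in 10 of 12 G2/M genes (83.3%), 2 of 16 G1/S genes (12.5%) and 20.2% of protein-coding genes. CCAAT was in 11 of 12 G2/M genes (91.7%), 9 of 16 G1/S genes (56.2%) and 42.3% of protein-coding genes. A match is a string of letters in the window and not a measured binding site.

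The 170 bases up to the start are shown for 3 G1/S genes that differ in their values, Mcm6, which fell with both compounds, Rrm1, the gene that differed between compounds, and Mcm5, which was not called. They lie at chr1:128359706-128359875 on the minus strand, chr7:102441525-102441694 on the plus strand and chr8:75109339-75109508 on the plus strand, and capitals mark E2F-like letters.
Mcm6: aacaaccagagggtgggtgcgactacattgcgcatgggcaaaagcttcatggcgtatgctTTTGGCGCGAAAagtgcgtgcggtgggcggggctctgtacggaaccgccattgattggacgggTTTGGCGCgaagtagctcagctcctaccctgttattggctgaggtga
Rrm1: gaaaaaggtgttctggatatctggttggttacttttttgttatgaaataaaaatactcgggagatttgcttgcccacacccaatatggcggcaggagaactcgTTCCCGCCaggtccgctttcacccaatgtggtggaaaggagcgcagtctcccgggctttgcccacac
Mcm5: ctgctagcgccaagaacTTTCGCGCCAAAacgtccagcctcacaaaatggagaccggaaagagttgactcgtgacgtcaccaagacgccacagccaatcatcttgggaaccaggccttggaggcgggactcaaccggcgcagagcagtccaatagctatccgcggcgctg
All 3 carry the letters, and the windows of E2f1, Rrm2 and Tk1, which fell with 15d-PGJ2, hold none of them. The E2f1 window (154569377 to 154569676, minus strand) lies inside the gene, which reaches 154569892. Its result therefore says nothing of the bases before that end.

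For the G2/M genes the same stretch is shown for Top2a, which fell with both compounds, Cdc20, which fell with 15d-PGJ2, and Cdk1, which was not called. They lie at chr11:99024190-99024359, chr4:118437344-118437513 and chr10:69352913-69353082, all on the minus strand, and capitals mark CHR and CCAAT letters or their complements.
Top2a: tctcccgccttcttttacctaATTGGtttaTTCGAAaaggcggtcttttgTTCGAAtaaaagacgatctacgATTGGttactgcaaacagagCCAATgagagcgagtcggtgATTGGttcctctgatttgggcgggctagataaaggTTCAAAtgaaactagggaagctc
Cdc20: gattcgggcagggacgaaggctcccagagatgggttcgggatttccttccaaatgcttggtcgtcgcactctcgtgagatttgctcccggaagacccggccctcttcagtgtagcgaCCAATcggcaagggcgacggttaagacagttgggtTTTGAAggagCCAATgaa
Cdk1: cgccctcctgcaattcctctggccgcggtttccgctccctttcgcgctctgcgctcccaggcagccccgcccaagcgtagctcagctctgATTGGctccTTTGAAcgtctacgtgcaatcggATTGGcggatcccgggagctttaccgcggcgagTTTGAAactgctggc
Each has a CHR string close to the start and CCAAT letters upstream of it.

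**Figure D4:**
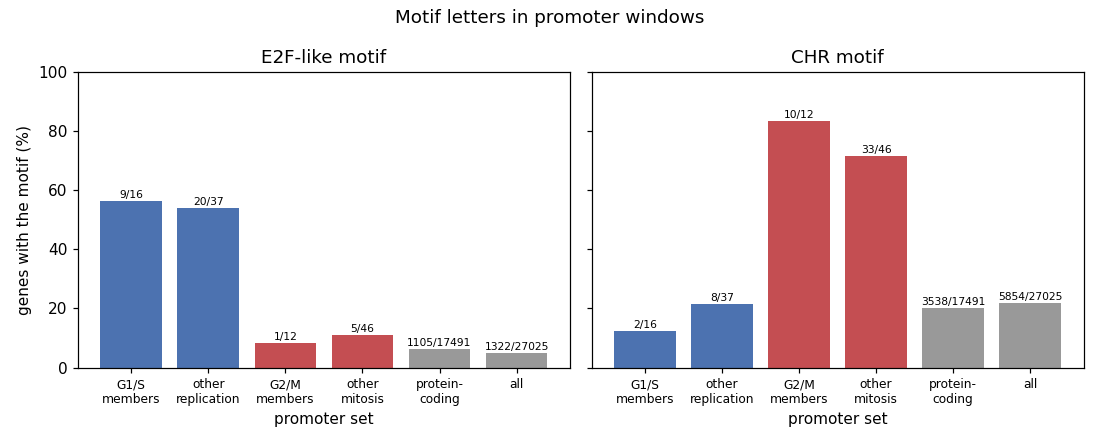
Percent of genes whose promoter window holds an E2F-like motif (left) or CHR letters (right), by gene set, with the number of genes written above each bar. G1/S members stand at 56.2% for E2F-like letters and G2/M members at 83.3% for CHR letters, beside 6.32% and 20.2% of protein-coding genes.

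The rest of the replication machinery, 50 further genes of which 43 were tested, gave 11 falls and 3 rises with 15d-PGJ2 (25.6% and 6.98%, median -0.16), a share of falls close to that of all genes. With 15d-PGJ2-PC 3 fell and 0 rose (6.98% and 0.00%, beside 14.1% and 13.8% of all genes, median -0.08). Between compounds 4 were higher with 15d-PGJ2-PC and 1 lower (9.30% and 2.33%, beside 12.3% and 8.30%, median 0.10), so these shares lie below those of all genes. Leaving out 1 library at a time gave 0 to 4 calls with 15d-PGJ2-PC against control and 1 to 3 between compounds. Tipin, a fork protection factor, averaged 3.88 ± 0.10 FPKM with 15d-PGJ2-PC, 2.02 ± 0.49 FPKM with 15d-PGJ2 and 3.81 ± 0.35 FPKM in controls. It fell with 15d-PGJ2 (-0.68, SE 0.12, adjusted p = 0.00103) and was higher with 15d-PGJ2-PC than with 15d-PGJ2 (0.70, SE 0.12, adjusted p = 0.0024), while against control 15d-PGJ2-PC gave 0.02 (adjusted p = 0.914). Fen1, the flap nuclease of Okazaki fragments, averaged 8.46 ± 0.90 FPKM with 15d-PGJ2-PC, 5.36 ± 0.98 FPKM with 15d-PGJ2 and 8.75 ± 1.53 FPKM in controls. It also fell with 15d-PGJ2 and was higher with 15d-PGJ2-PC than with 15d-PGJ2 (0.58, SE 0.14, adjusted p = 0.0135, and 0.0529 without 15d-PGJ2-PC replicate 1).

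The clamp loader genes Rfc1 and Rfc3 fell with both compounds. Rfc1 averaged 10.9 ± 0.63 FPKM with 15d-PGJ2-PC, 8.82 ± 0.90 FPKM with 15d-PGJ2 and 13.6 ± 1.04 FPKM in controls, with adjusted p of 0.0247 and 0.000274 against control. Rfc3 averaged 7.33 ± 0.24 FPKM with 15d-PGJ2-PC, 6.00 ± 1.15 FPKM with 15d-PGJ2 and 10.1 ± 1.01 FPKM in controls, with adjusted p of 0.0273 and 0.000884. The 15d-PGJ2-PC calls of both were lost without 15d-PGJ2-PC replicates 2 or 3 (0.0856 and 0.06 for Rfc1, 0.0783 and 0.0556 for Rfc3) and without control replicates 2 or 3 (0.0938 and 0.067, 0.0916 and 0.0874), and that of Rfc3 also without 15d-PGJ2-PC replicate 1 (0.0631). Msh6, a mismatch repair gene, went the other way, with 5.91 ± 0.33 FPKM with 15d-PGJ2-PC, 7.43 ± 0.74 FPKM with 15d-PGJ2 and 5.26 ± 0.33 FPKM in controls, and rose with 15d-PGJ2 (0.43, SE 0.09, adjusted p = 0.0024). Msh6 was lower with 15d-PGJ2-PC than with 15d-PGJ2 (-0.29, adjusted p = 0.0446), a call lost in 11 of 19 alternatives.

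Among 55 further mitosis genes, 43 tested, 8 fell and 6 rose with 15d-PGJ2 (18.6% and 14.0%, median -0.18), both below the shares of all genes. With 15d-PGJ2-PC 4 fell and 1 rose (9.30% and 2.33%, beside 14.1% and 13.8% of all genes, median -0.07). Between compounds 1 was higher and 1 lower with 15d-PGJ2-PC (2.33% each, beside 12.3% and 8.30%, median 0.08), again below the shares of all genes. Leaving out 1 library at a time gave 1 to 5 calls with 15d-PGJ2-PC against control, and 9 to 15 with 15d-PGJ2, the lowest without control replicate 2. Pttg1, the gene of securin, which guards sister chromatid cohesion, averaged 32.6 ± 3.73 FPKM with 15d-PGJ2-PC, 27.6 ± 1.48 FPKM with 15d-PGJ2 and 42.4 ± 3.57 FPKM in controls and fell with both (adjusted p = 0.00753 and 0.000181). The condensin gene Ncaph averaged 2.62 ± 0.46 FPKM with 15d-PGJ2-PC, 1.34 ± 0.12 FPKM with 15d-PGJ2 and 3.14 ± 0.57 FPKM in controls. It fell with 15d-PGJ2 (adjusted p = 0.000613) and was higher with 15d-PGJ2-PC than with 15d-PGJ2 (0.63, SE 0.14, adjusted p = 0.00853). Cks2, a small partner of cyclin-dependent kinases, ran opposite, with 6.75 ± 1.52 FPKM with 15d-PGJ2-PC, 12.7 ± 1.85 FPKM with 15d-PGJ2 and 6.26 ± 0.87 FPKM in controls, and rose with 15d-PGJ2 (0.92, SE 0.15, adjusted p = 0.000542). Cks2 was lower with 15d-PGJ2-PC than with 15d-PGJ2 (-0.84, adjusted p = 0.00296).

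Regulators of G1 moved in both directions. Of 22 tested, 5 rose and 3 fell with 15d-PGJ2-PC (22.7% and 13.6%, beside 13.8% and 14.1% of all genes, median 0.06). With 15d-PGJ2 7 rose and 7 fell (31.8% each, beside 22.2% and 25.0% of all genes, median 0.05). Between compounds 3 were lower and 0 higher with 15d-PGJ2-PC (13.6% lower, beside 8.30% of all genes). The other D-type cyclins shared the direction of Ccnd1. Ccnd2 read 1.24, 1.02 and 1.12 FPKM with 15d-PGJ2-PC, 0.99, 1.16 and 0.93 FPKM with 15d-PGJ2 and 2.11, 2.56 and 2.85 FPKM in controls, and fell by 0.72 (SE 0.13, adjusted p = 0.00179) and 0.79 (SE 0.13, adjusted p = 0.000486). Ccnd3, the most abundant of the D-type cyclins here, read 23.8, 20.6 and 23.0 FPKM with 15d-PGJ2-PC, 21.1, 20.1 and 22.0 FPKM with 15d-PGJ2 and 39.4, 39.3 and 32.2 FPKM in controls, and fell by 0.69 (SE 0.08, adjusted p = 0.000129) and 0.78 (SE 0.08, adjusted p = 2.18e-05). In both genes the compounds overlap each other and lie below all controls.

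E2f6, an E2F protein that represses transcription, was at 22.9, 22.8 and 22.8 FPKM with 15d-PGJ2-PC, 30.3, 34.9 and 29.1 FPKM with 15d-PGJ2 and 9.36, 8.07 and 8.03 FPKM in controls. It rose by 1.33 with 15d-PGJ2-PC (SE 0.08, adjusted p = 9.38e-07) and by 1.77 with 15d-PGJ2 (SE 0.08, adjusted p = 2.73e-08), and was lower with 15d-PGJ2-PC than with 15d-PGJ2 (-0.44, SE 0.08, adjusted p = 0.00264). No library of one group reached the range of another. Lin54, the DNA-binding subunit of the MuvB complex, which recognises the CHR element, was at 6.13, 6.65 and 6.40 FPKM with 15d-PGJ2-PC, 7.85, 8.59 and 8.73 FPKM with 15d-PGJ2 and 3.50, 3.19 and 3.06 FPKM in controls. It rose with both (0.80 and 1.14, SE 0.08 each, adjusted p = 3.88e-05 and 8.36e-07) and was lower with 15d-PGJ2-PC than with 15d-PGJ2 (-0.34, adjusted p = 0.0123, and 0.0503 without 15d-PGJ2 replicate 3).

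Myc, a growth-promoting transcription factor, averaged 8.23 ± 1.20 FPKM with 15d-PGJ2-PC, 12.1 ± 1.43 FPKM with 15d-PGJ2 and 5.65 ± 0.64 FPKM in controls. It rose by 0.47 with 15d-PGJ2-PC (SE 0.12, adjusted p = 0.0133) and by 0.97 with 15d-PGJ2 (SE 0.12, adjusted p = 5.51e-05), and the compounds differed (-0.51, SE 0.12, adjusted p = 0.0117). The call with 15d-PGJ2-PC was lost without 15d-PGJ2-PC replicates 1 or 3 (0.0512 and 0.0513) or control replicate 2 (0.0516). E2f3, an activating E2F, averaged 8.69 ± 0.70 FPKM with 15d-PGJ2-PC, 9.36 ± 0.72 FPKM with 15d-PGJ2 and 5.58 ± 0.24 FPKM in controls and rose with both (adjusted p = 0.000534 and 7.63e-05).

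**Figure D5:**
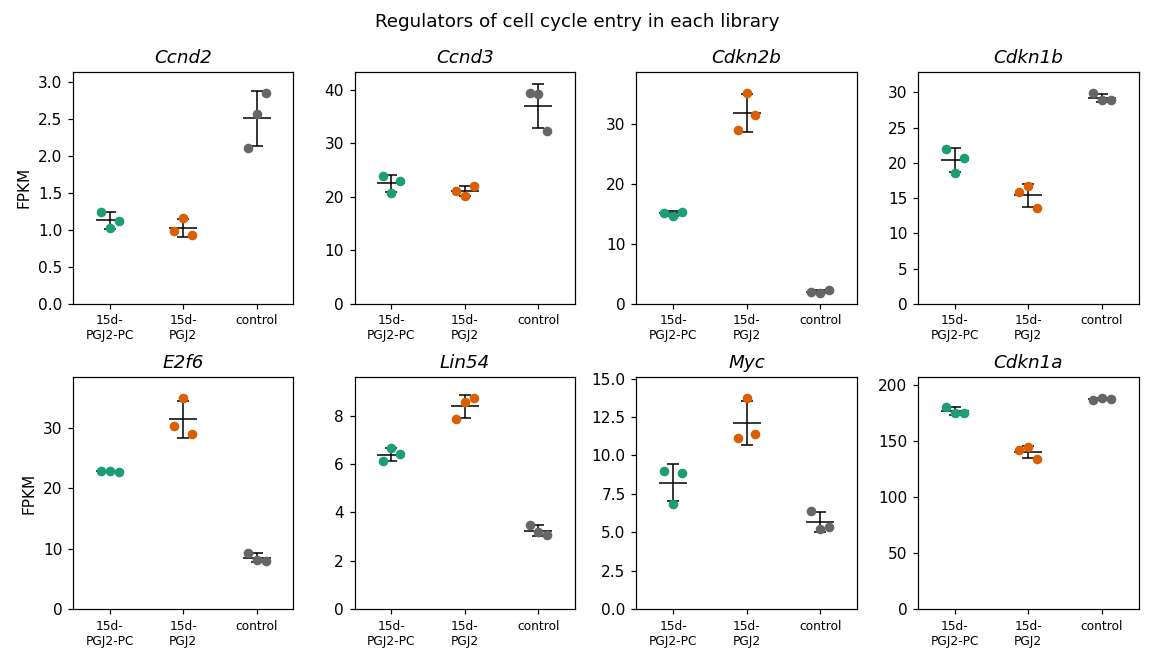
FPKM in each library for 8 regulators of cell cycle entry, with 15d-PGJ2-PC, 15d-PGJ2 and control from left to right. Points are libraries, long bars are means and short bars are 1 SD (n = 3), and each axis starts at 0. Ccnd2, Ccnd3 and Cdkn1b are highest in controls, and Cdkn2b, E2f6, Lin54 and Myc are highest with 15d-PGJ2.

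The 7 inhibitors of cyclin-dependent kinases did not move together. With 15d-PGJ2-PC 1 rose and 2 fell (14.3% and 28.6%, beside 13.8% and 14.1% of all genes). With 15d-PGJ2 2 rose and 2 fell (28.6% each, beside 22.2% and 25.0% of all genes) and 3 were not called. Between compounds 2 were higher and 1 lower with 15d-PGJ2-PC (28.6% and 14.3%, beside 12.3% and 8.30% of all genes). Cdkn2b, which encodes p15 and blocks Cdk4 and Cdk6, was at 15.1, 14.7 and 15.4 FPKM with 15d-PGJ2-PC, 28.9, 35.1 and 31.4 FPKM with 15d-PGJ2 and 1.94, 1.82 and 2.35 FPKM in controls. The 3 groups are wide apart, and the gene rose by 2.41 with 15d-PGJ2-PC (SE 0.09, adjusted p = 4.79e-08) and by 3.43 with 15d-PGJ2 (SE 0.09, adjusted p = 1.04e-09), with a difference of -1.03 between compounds (adjusted p = 2.55e-05). Cdkn1b, the gene of p27, ran the other way at 22.0, 18.6 and 20.7 FPKM with 15d-PGJ2-PC, 15.8, 16.8 and 13.5 FPKM with 15d-PGJ2 and 29.9, 29.0 and 28.9 FPKM in controls. It fell by 0.50 (SE 0.08, adjusted p = 0.00102) and 0.89 (SE 0.08, adjusted p = 6.58e-06), and was higher with 15d-PGJ2-PC than with 15d-PGJ2 (0.39, adjusted p = 0.00686).

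Cdkn1a, the gene of p21, a target of p53, averaged 177 ± 3.32 FPKM with 15d-PGJ2-PC, 140.0 ± 5.58 FPKM with 15d-PGJ2 and 187 ± 0.67 FPKM in controls. It fell with 15d-PGJ2 (-0.42, SE 0.03, adjusted p = 3.28e-06), was not called with 15d-PGJ2-PC (-0.08, adjusted p = 0.105) and was higher with 15d-PGJ2-PC than with 15d-PGJ2 (0.33, adjusted p = 8.55e-05). Cdkn2a, whose locus encodes p16 and p19Arf, averaged 2.28 ± 1.27 FPKM with 15d-PGJ2-PC, 4.31 ± 1.01 FPKM with 15d-PGJ2 and 1.70 ± 0.66 FPKM in controls and rose with 15d-PGJ2 (0.99, SE 0.27, adjusted p = 0.0125, and 0.0508 without control replicate 3). Cdkn1c, the gene of p57, averaged 2.27 ± 0.57 FPKM with 15d-PGJ2-PC, 3.36 ± 0.23 FPKM with 15d-PGJ2 and 3.32 ± 0.34 FPKM in controls, and its call with 15d-PGJ2-PC (adjusted p = 0.0486) was lost without any 1 library other than 15d-PGJ2-PC replicate 1, with values of 0.0511 to 0.145. That call was also lost with no filter, pseudocounts of 0.1 and 0.5, quantile normalization, 6 libraries per fit and a replicate block (adjusted p of 0.0501 to 0.0957). Cdkn2c and Cdkn2d, of the same family as Cdkn2b, were not called, though Cdkn2d passed in 15d-PGJ2 against control without 15d-PGJ2 replicate 1 (0.0269).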

How the data were processed

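RNA was sequenced from 9 macrophage libraries in 3 groups of 3. The authors deposited 1 table of FPKM values, per the file headers, used as deposited. Per the submitters' processing notes the genome build was mm10 and the aligner BWA. The BWA version and counting tool were not given in the sources used here. Depth was estimated from the steps between low FPKM values. Genes at 1 FPKM or more in 3 of 9 libraries (11309) were moved to log2(FPKM + 1) and tested with limma 3.58.1 in R 4.3.3 (moderated test with intensity trend, 2-sided, all 9 libraries in 1 fit, Benjamini-Hochberg within each contrast, threshold 0.05). The fit was tested on simulated data. An exact permutation of 3 against 3 libraries cannot go below p = 0.1, so none is given. The named genes are those called, the MCM and mitotic cyclin genes, up to 4 genes per list and contrast with the smallest p, and the D-type cyclins, Myc and all inhibitors of cyclin-dependent kinases. The 34 genes, the lists and the tests were chosen with earlier results of these data known. Alternatives were pseudocounts of 0.1 and 0.5, no filter and a filter of 5 FPKM, quantile and median-ratio scaling, no trend, 6 libraries per fit, a replicate block, each library left out and, added after seeing the data, adjustment over all 3 contrasts.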

Additional observations from a re-analysis of the deposited data

How the results depend on the processing

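None of the cell cycle genes, nor of the other genes named for the lists, changed sign where it was called in either setting; the genes named among the other observations were not run. Of the 12 cell cycle genes called with 15d-PGJ2 against control, 8 were called in every setting that tested them (Mcm4, Rrm2 and Cdc20 were not tested under the filter of 5 FPKM, the other 5 in all settings), as were 3 of the 7 called with 15d-PGJ2-PC (Mcm6, Ccnd1 and E2f1) and Rrm1 between compounds; the cause of the losses was not tested. Depth limits these results: a tested G2/M gene rested on 8 to 226 reads per library. A filter of 5 FPKM tests fewer genes and left 5 G1/S and 1 G2/M calls with 15d-PGJ2, and 6 among the other mitosis genes. The median log2 fold change of G1/S genes with 15d-PGJ2 was then -0.13, and it was -0.20 with no filter, -0.36 and -0.31 with pseudocounts of 0.1 and 0.5 and -0.23 after quantile normalization. For G2/M genes with 15d-PGJ2 it was -0.45 with a pseudocount of 0.1. Under the filter of 5 FPKM Top2a was the only G2/M gene tested, so -0.53 is its own value and not a group median. With 15d-PGJ2-PC against control, no filter left 0 G2/M calls and 3 among the other mitosis genes, and the filter of 5 FPKM left 3 of these. In this contrast the G1/S median was -0.082 with the filter of 5 FPKM, where Top2a alone stood for G2/M at -0.30. With a pseudocount of 0.1 the medians were -0.15 (G1/S) and -0.29 (G2/M). Between compounds the G2/M median was 0.21 with a pseudocount of 0.1, and Top2a alone gave 0.23 with the filter of 5 FPKM. The other replication genes gave 2 calls between compounds with no filter and with 6 libraries, and 3 with the filter of 5 FPKM, quantile normalization and median-ratio scaling. The other mitosis genes gave 4 without the trend and 5 with adjustment over all 3 contrasts.

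Leaving out 1 library at a time gave, with 15d-PGJ2 against control, 6 to 8 G1/S and 2 to 6 G2/M calls, 9 to 15 other mitosis calls and medians of -0.35 to -0.24 (G1/S) and -0.36 to -0.28 (G2/M). With 15d-PGJ2-PC against control it gave 4 to 7 G1/S and 0 to 2 G2/M calls, 0 to 4 other replication and 1 to 5 other mitosis calls and a G1/S median of -0.21 to -0.11. Between compounds it gave 1 to 2 G1/S calls, 1 to 3 other replication and 2 to 4 other mitosis calls and medians of 0.035 to 0.087 (G1/S) and 0.040 to 0.14 (G2/M).

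The replicate numbers gave no sign of pairing: deviations of same-numbered libraries correlated at -0.04 to 0.05 (9 pairs) and others at -0.07 to 0.10 (18 pairs). These correlations cannot exclude that same-numbered libraries share an animal or culture, which the labels do not state. With a replicate block, 7 G1/S and 4 G2/M genes were called with 15d-PGJ2, 6 and 1 with 15d-PGJ2-PC, and 1 and 0 between compounds, with 3 other replication and 5 other mitosis genes between compounds.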

Other observations

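Cyclins and kinases that work mainly in transcription and other processes, 27 genes taken by symbol outside the lists above (25 tested), moved in both directions. With 15d-PGJ2, 5 rose and 6 fell against control (20.0% and 24.0%, beside 22.2% and 25.0% of all genes), and with 15d-PGJ2-PC 3 rose and 2 fell (12% and 8%, beside 13.8% and 14.1%). Between compounds limma called 0, beside 20.6% of all genes, with 4 at an unadjusted p under 0.05. Ccnt1, a cyclin of the elongation factor P-TEFb, averaged 14.2 FPKM with 15d-PGJ2-PC, 14.4 FPKM with 15d-PGJ2 and 10.4 FPKM in controls, and rose with both (adjusted p = 0.00198 and 0.00078). Cdk19, a kinase of the Mediator complex, averaged 23.4 FPKM with 15d-PGJ2-PC, 21.2 FPKM with 15d-PGJ2 and 30.2 FPKM in controls, and fell with both. These genes were chosen for naming after looking at their values.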
